A study of Mus musculus with 12 samples.

Results

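Chemokine, interleukin and tumour necrosis factor (TNF) family genes were examined in RNA of cells sorted from the dentate gyrus, the part of the hippocampus where neurons are still made in adult mice. Members were chosen by symbol alone: any gene above 0 in 4 or more libraries whose name belongs to the chemokines (Ccl, Cxcl, Cx3cl) and their receptors (Ccr, Cxcr, Ackr), the interleukins and their receptors (Il), the interferon receptors (Ifnar, Ifngr), the TNF ligands and receptors (Tnfsf, Tnfrsf), the colony stimulating factor receptors (Csf2r, Csf3r), Lif, Osm, the Socs inhibitors or the Jak kinases. Of 89 genes with such symbols, 13 were above 0 in fewer than 4 libraries, which left 76 of the 10510 genes above 0 in any library. Of these 76, 48 were above 0 in all 12 libraries, and 61 had enough reads to be tested. Only genes among the 10749 with deposited values could be members, and family genes absent from those values were not examined. Such an absence says nothing about expression. All chemokine, chemokine receptor and TNF family members lay on the plus strand of the genome. So did all interleukin, interferon receptor, colony stimulating factor receptor, Lif and Osm family, Jak and Socs members. The plus strand is thus not particular to any of these roles, and the strands of all deposited genes were not compared here. Marker and partner genes are called listed below when the deposited values hold them.

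All 12 libraries came from LPA1-GFP mice aged 8 weeks, in which green fluorescent protein (GFP) reports the gene of the lysophosphatidic acid receptor LPA1 from the transgene Tg(Lpar1-EGFP)GX193Gsat. Per the labels, the line was on an FVB/N-Swiss Webster background and was rederived into C57BL/6. Stem libraries held GFP-positive cells that stained for Prominin-1, a protein of membrane protrusions, as well as for the receptor EGFR. Progenitor libraries held the GFP-positive cells that lacked 1 or both of these markers, and niche libraries held the GFP-negative cells. There were 4 replicates per group, each amplified from RNA of 1000 cells. Whether a replicate was 1 animal or a pool is not given in the sources used here. The p-values therefore refer to the spread among these 12 libraries, and some of that spread may be technical.

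Chemokines are small secreted proteins that guide migrating cells, most of them leukocytes, through receptors coupled to G proteins. Interleukins, interferons and colony stimulating factors act through receptor chains that carry Jak kinases and activate STAT transcription factors, a route that Socs proteins inhibit. TNF ligands and interleukin-1 act through adaptors that lead to NF-kB. In brain tissue, microglia and the macrophages of the meninges and vessels are well-known sources of inflammatory chemokines, while neurons make Cx3cl1 and granule cells, vessels and meninges make Cxcl12.

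Library totals ran from 7597256 to 22854036 reads. Levels below are RPKM, reads scaled to exon length and library depth, divided by a trimmed mean of M-values (TMM) scaling factor and given for replicates 1 to 4 in order. Egfr, the only sort gene listed, averaged 34.3 ± 6.52 RPKM in stem, 5.67 ± 3.99 in progenitor and 8.32 ± 9.20 in niche (SD, n = 4 each). Of 10 neural stem genes 8 were listed, and their summed level was between 688 and 1362 RPKM in stem libraries, 1284 and 2611 in progenitor libraries, and 686 and 792 in niche libraries, so the stem libraries did not stand above the progenitor libraries in them. Niche replicate 1 stood apart by red cell genes (4 of 7 listed), which summed to 1044788 RPKM there against 36929 to 180122 in the other niche libraries and at most 3375 in any stem or progenitor library. Its TMM factor was 0.4315, against 0.8226 to 1.2302 in the other libraries. Division by this factor raised all levels given for niche replicate 1, more than in any other library.

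Macrophage genes differed between the populations alongside the chemokine and receptor genes described below. Genes abundant in all macrophages (7 of 15 listed: Csf1r, Tyrobp, Ctss, Laptm5, Adgre1, Trem2 and Itgam) summed to between 2345 and 9202 RPKM in stem libraries, 124 and 280 in progenitor libraries, and 3359 and 5764 in niche libraries. Border macrophage genes (4 of 12 listed: Mrc1, Pf4, Cd163 and Clec10a) summed to between 1595 and 6044 RPKM in stem libraries, 44.8 and 160 in progenitor libraries, and 55.8 and 616 in niche libraries. Stem libraries were therefore above both other groups in border macrophage genes. Microglia genes (2 of 9 listed: Siglech and Gpr34) summed to between 58.4 and 231 RPKM in stem libraries, 5.75 and 10.8 in progenitor libraries, and 251 and 1552 in niche libraries, which put niche highest. Among other leukocytes, T and NK cell genes (3 of 8 listed) summed to between 0.213 and 6.23 RPKM in stem libraries, 2.47 and 8.84 in progenitor libraries, and 0.361 and 179 in niche libraries, and Cd3d was at 0 in every progenitor and niche library. The B cell gene Cd79a averaged 0.703 ± 0.765 RPKM in stem, 0.226 ± 0.233 in progenitor and 6.86 ± 8.09 in niche, and the neutrophil gene S100a8 averaged 0.426 ± 0.852, 0.0253 ± 0.0506 and 0 RPKM in the same order (SD, n = 4 each). The monocyte genes chosen, and microglial P2ry12 and Tmem119 among others, were not analysed here. The part of these cell types in the results was not tested, and in such bulk libraries fewer cells of a type and less RNA per cell cannot be told apart.

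**Figure D1:**
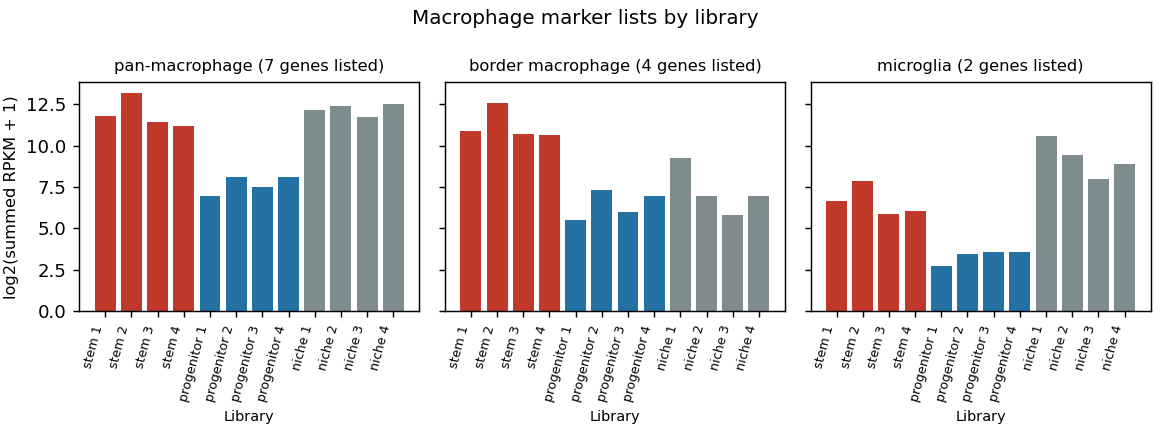
Summed level of the listed marker genes of all macrophages, border macrophages and microglia, as log2(summed RPKM + 1), in the 4 stem, 4 progenitor and 4 niche libraries. Every progenitor bar is below every stem bar, stem is highest for border macrophage genes and niche is highest for microglia genes.

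Stem against progenitor compared GFP-positive cells with both other markers to those that lacked 1 or both. Higher in stem were 7 of 13 tested chemokine genes, among them attractants of monocytes and neutrophils, 4 of 15 interleukin receptors, 4 of 7 TNF receptors and both colony stimulating factor receptors. Of the 61 tested members, 19 were higher (31.1%), against 3.74% of all 8360 tested genes, and 2 were lower (3.28%), against 3.55% of all genes. In either direction, 7.3% of all genes were called. The 4 stem libraries all lay above the 4 progenitor libraries for 20 members (32.8%), where 11.3% of all genes did so. They all lay below for 6 members (9.84%), against 13.5% of all genes. The members' median log2 fold change was 0.46, against -0.06 over all genes. Without stem replicate 2, the library with the most macrophage and chemokine RNA, 9 members were called higher, all 9 among the 19. Without progenitor replicate 1 it was 12, again all among the 19. At an unadjusted p below 0.05, 21 members were higher and 7 lower, where 8.42% and 9.29% of all genes were.

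Stem against niche was more even. Of the 61, 9 members were higher in stem (14.8%, against 11.3% of all genes) and 7 lower (11.5%, against 10.6%), so both shares were near the background. The higher ones were 6 chemokines, Osm and the receptors Csf2rb and Tnfrsf17. Among the lower ones were Il1r1, Tnfrsf21 and the chemokine genes Cxcl12, Cx3cl1, Ccl27b and Ccl19-ps3. The members' median was -0.15 and that of all genes 0.11. With libraries scaled by size alone, the counts were 14 higher and 4 lower, and the medians were 0.22 for members and 0.58 for all genes.

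Progenitor against niche ran one way. Of the 61, 10 members were lower in progenitor (16.4%, against 5.67% of all genes), among them Ccl4, Csf3r, Il1r1 and Ifngr1. By limma, 0 were higher (6.09% of all genes were), with 3 at an unadjusted p below 0.05 (15.9% of all genes) and 0 by voom on the recovered reads (7.07% of all genes). The 4 progenitor libraries all lay below the 4 niche libraries for 15 members (24.6%, against 6.67% of all genes). Above niche in this way were 0 members, against 9.06% of all genes. The median was -0.68 for members and 0.17 for all genes, and with scaling by library size alone -0.21 and 0.62.

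Across the 3 comparisons, 27 members were called in at least 1 and 34 in none. Among the 27, the commonest pattern, in 9 members, was higher in stem than in both other groups. In 5 members (Ccl4, Csf3r, Ifngr1, Il13ra1 and Il4ra) progenitor was lower than both others. In another 5, among them Cx3cl1, Cxcl12, Il1r1 and Tnfrsf21, niche was higher than both others. The 3 comparisons share their libraries, so these patterns are not independent of each other. How often all tested genes showed each pattern was not counted, so no pattern can be called particular to the members.

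**Figure D2:**
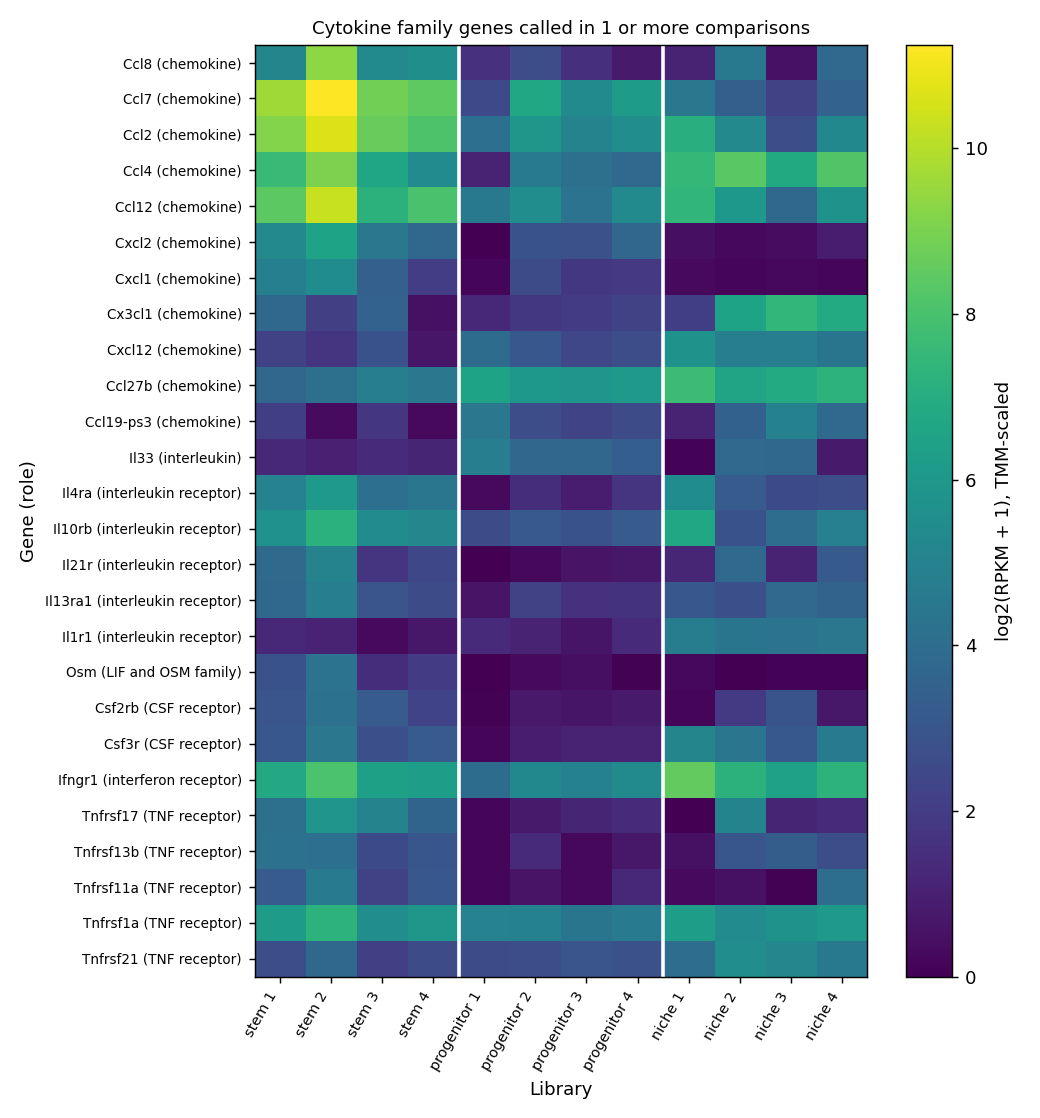
Levels of the called members described in the text, as log2(RPKM + 1), TMM-scaled, with 1 row per gene grouped by role and 1 column per library. The chemokine rows at the top are brightest in the stem columns, most strongly in stem replicate 2, while the Cxcl12 and Il1r1 rows are brightest in the niche columns.

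**Figure D3:**
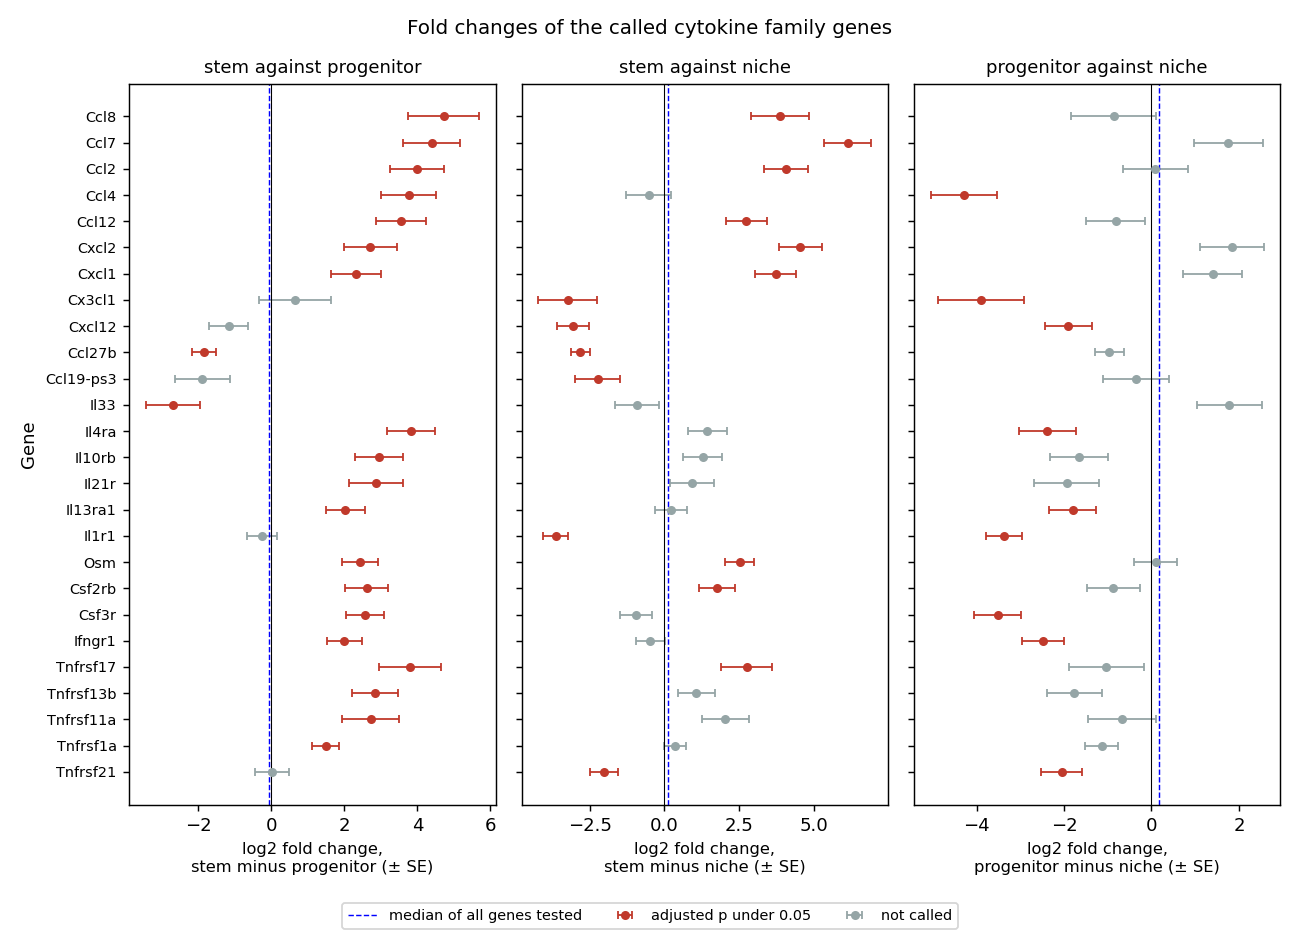
Log2 fold change ± SE of the called members described in the text, for stem minus progenitor, stem minus niche and progenitor minus niche, from limma on log2(RPKM + 1). Red points passed an adjusted p of 0.05, and the dashed line is the median over all tested genes. Most red points lie to the right for stem minus progenitor and all lie to the left for progenitor minus niche.

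The most abundant members were the monocyte chemokines Ccl7, Ccl2 and Ccl12, ligands of Ccr2. With Ccl8, a related monocyte chemokine gene, they lie in 1 cluster on chromosome 11 of GRCm38: Ccl2 (ENSMUSG00000035385) at 82035571 to 82037453, Ccl7 (ENSMUSG00000035373) at 82045712 to 82047525, Ccl12 (ENSMUSG00000035352) at 82101845 to 82103400 and Ccl8 (ENSMUSG00000009185) at 82115185 to 82116799. Ccl7 was at 811, 2432, 467 and 356 RPKM in stem, 4.65, 103, 39.8 and 70.5 in progenitor and 21.9, 9.70, 3.65 and 10.6 in niche. Stem lay above both other groups without overlap, by a log2 fold change of 4.39 ± 0.79 over progenitor (SE, limma adjusted p = 0.00281) and 6.14 ± 0.79 over niche (adjusted p = 5.3e-05). Ccl2 was at 575, 1589, 396 and 272 RPKM in stem, 16.4, 60.3, 31.8 and 45.2 in progenitor and 133, 37.9, 5.41 and 37.0 in niche. Again every stem library was above all others, by 3.98 ± 0.74 over progenitor (adjusted p = 0.00346) and 4.06 ± 0.74 over niche (adjusted p = 0.000971).

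Ccl12 was at 340, 1249, 149 and 255 RPKM in stem, 22.6, 44.2, 18.7 and 39.2 in progenitor and 166, 63.0, 12.9 and 53.8 in niche. Its stem libraries cleared the progenitor libraries by 3.56 ± 0.68 on the log2 scale (adjusted p = 0.00418) but overlapped niche at niche replicate 1, with a difference of 2.74 ± 0.68 (adjusted p = 0.00916). Ccl8 was at 34.3, 648, 40.0 and 48.3 RPKM in stem, 2.00, 5.37, 1.83 and 0.771 in progenitor and 1.12, 22.3, 0.463 and 13.4 in niche. Stem replicate 2 was far above the other stem libraries, yet all 4 stem libraries exceeded the rest. The difference was 4.72 ± 0.97 over progenitor (adjusted p = 0.00675) and 3.86 ± 0.97 over niche (adjusted p = 0.0103). Without stem replicate 2 it was 3.73 over progenitor (adjusted p = 0.0242, range over the 22 alternatives 0.000647 to 0.0275). All 8 of these calls held under each of the 22 alternative settings, and in each gene the highest library was stem replicate 2, which also had the most macrophage RNA.

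Ccl4, a chemokine of activated macrophages (ENSMUSG00000018930, chromosome 11, 83662584 to 83664683), followed another pattern. It was at 192, 529, 100 and 42.4 RPKM in stem, 1.11, 23.9, 16.6 and 13.5 in progenitor and 180, 325, 112 and 292 in niche. Stem and niche overlapped, and progenitor lay below both. Stem exceeded progenitor by 3.76 ± 0.76 (adjusted p = 0.00608) and progenitor differed from niche by -4.29 ± 0.76 (adjusted p = 0.00152), while stem minus niche was -0.53 ± 0.76 (adjusted p = 0.659).

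**Figure D4:**
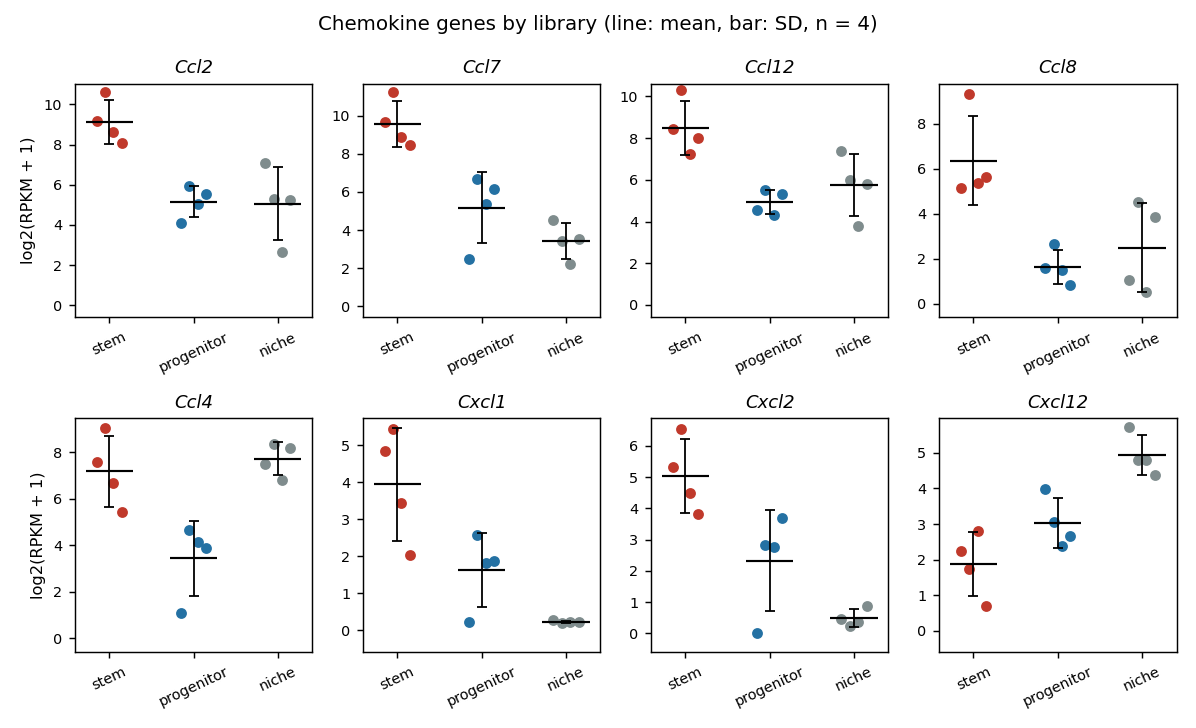
Levels of 8 chemokine genes by library as log2(RPKM + 1), TMM-scaled, in stem, progenitor and niche, with the mean as a line and the SD as a bar (n = 4). Ccl2, Ccl7, Ccl12 and Ccl8 are highest in stem, Ccl4 is lowest in progenitor, Cxcl1 and Cxcl2 are near 0 in niche, and Cxcl12 is highest in niche.

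Cxcl1 and Cxcl2 encode neutrophil chemokines and lie side by side on chromosome 5, Cxcl1 (ENSMUSG00000029380) at 90891241 to 90893115 and Cxcl2 (ENSMUSG00000058427) at 90903871 to 90905938. They are textbook targets of NF-kB, and their promoters are printed because they are the only members with a pair of matches to an NF-kB motif. The sequences are the 250 bases before the RefSeq transcript start (GRCm38.p6), 5′ to 3′ on the plus strand, with the motif matches in capitals.
Cxcl1, chr5:90890995-90891244: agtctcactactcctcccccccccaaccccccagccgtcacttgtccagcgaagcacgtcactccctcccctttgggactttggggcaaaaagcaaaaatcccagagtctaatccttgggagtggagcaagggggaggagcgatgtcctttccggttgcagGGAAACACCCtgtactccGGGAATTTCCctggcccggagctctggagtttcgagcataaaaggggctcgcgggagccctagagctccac
Cxcl2, chr5:90903649-90903898: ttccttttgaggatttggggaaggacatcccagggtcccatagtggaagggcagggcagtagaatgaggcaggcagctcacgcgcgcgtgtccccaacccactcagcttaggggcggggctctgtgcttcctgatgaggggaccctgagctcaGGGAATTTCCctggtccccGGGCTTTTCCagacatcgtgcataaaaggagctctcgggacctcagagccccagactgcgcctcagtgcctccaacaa

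The motif searched, on both strands, was GGG followed by any 2 bases and TTTCC. Matches lay 89 to 80 and 71 to 62 bases before the start in Cxcl1, and 97 to 88 and 78 to 69 bases before it in Cxcl2. Of 32851 RefSeq promoter windows of 250 bases, 1.41% held a match, and 8 windows (0.0244%) held 2 or more. Of the 76 members 55 had an entry, with 70 windows together. Matches stood in 6 of these 70 windows, those of Cxcl1, Cxcl2, Ifngr2, Il17rc, Il1rn and Tnfrsf25. For comparison, the AP-1 motif TGANTCA stood in 6.75% of all windows and in 6 of the 70 member windows. The STAT motif TTCNNNGAA stood in 7.02% of all windows and in 9 of the 70. A match is only a run of letters and shows no binding.

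Cxcl2 was at 38.6, 92.5, 21.4 and 13.1 RPKM in stem, 0, 6.14, 5.84 and 12 in progenitor and 0.362, 0.180, 0.299 and 0.848 in niche. Every stem library was above every other library, although stem replicate 4 exceeded progenitor replicate 4 only slightly. Cxcl1 was at 27.7, 42.8, 9.79 and 3.11 RPKM in stem, 0.153, 5.0, 2.53 and 2.63 in progenitor and 0.201, 0.133, 0.166 and 0.156 in niche. Here stem and progenitor overlapped and stem and niche did not. Over niche, Cxcl2 was higher in stem by 4.55 ± 0.73 (adjusted p = 0.00035) and Cxcl1 by 3.72 ± 0.68 (adjusted p = 0.000998), and both calls held under all 22 alternatives. Since Cxcl1 had only 1 to 2 reads and Cxcl2 2 to 6 reads in each niche library, these fold changes depend on the pseudocount. With 0.1 in place of 1 RPKM they were 6.07 for Cxcl2 and 5.73 for Cxcl1, and with 4 RPKM 3.05 and 2.23.

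Over progenitor the difference was less certain, at 2.71 ± 0.73 for Cxcl2 (adjusted p = 0.033) and 2.32 ± 0.68 for Cxcl1 (adjusted p = 0.0498). The Cxcl2 call failed when any of these was left out: stem replicate 1 (0.094), 2 (0.133) or 3 (0.0537), or progenitor replicate 1 (0.088), 2 (0.058) or 3 (0.0608), where all alternatives spanned 0.019 to 0.133. It also failed with a pseudocount of 0.1 RPKM (0.11) and with voom (0.0841). The Cxcl1 call was lost without any single stem or progenitor library other than stem replicate 4 and without niche replicates 2, 3 or 4 (0.0522 to 0.18), where all alternatives spanned 0.012 to 0.18. Median-of-ratios scaling (0.0501), a pseudocount of 0.1 RPKM (0.101), no filter (0.0696), voom (0.103) and empirical Bayes without the robust option (0.0505) ended it too, and 6 of the 22 alternatives kept it. Progenitor replicate 1 had 0 reads of Cxcl2 and 2 of Cxcl1, the fewest of its group. Without it, Cxcl2 was called higher in progenitor than in niche (adjusted p = 0.0119), as was Ccl7 (adjusted p = 0.0162), against 0.116 and 0.166 with it, in ranges of 0.00732 to 0.369 and 0.00428 to 0.397. Library size alone gave that call for Ccl7 too (0.0485).

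Chemokine genes that were higher in niche were a different set. Cxcl12, a ligand of Cxcr4 (ENSMUSG00000061353, chromosome 6), was at 3.71, 2.34, 6.03 and 0.611 RPKM in stem, 14.8, 7.38, 4.22 and 5.36 in progenitor and 51.6, 27.1, 26.8 and 19.9 in niche. Niche lay above both other groups, which overlapped each other. Stem was lower than niche by a log2 difference of -3.06 ± 0.53 (adjusted p = 0.000708), a call that held under all 22 alternatives. Progenitor differed from niche by -1.90 ± 0.53 (adjusted p = 0.03), which was lost without progenitor replicate 2 (0.0747), 3 (0.107) or 4 (0.0942), within a range of 0.00536 to 0.107. Scaling by library size alone (0.0694), a pseudocount of 0.1 RPKM (0.0652) and a fit of only the 2 groups (0.0513) ended it too. Endothelial marker genes (8 of 15 listed) summed to between 25.8 and 65.4 RPKM in stem libraries, 61.1 and 112 in progenitor libraries, and 206 and 1059 in niche libraries, with niche highest. Fibroblast and meninges genes (6 of 8 listed) summed to between 5.30 and 58.0 RPKM in stem libraries, 102 and 249 in progenitor libraries, and 18.2 and 129 in niche libraries, and were highest in progenitor. The part of either cell type in the Cxcl12 result was not tested.

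Cx3cl1, the neuronal ligand of the microglial receptor Cx3cr1, was at 12.9, 3.39, 10.6 and 0.404 RPKM in stem, 1.49, 2.58, 3.05 and 3.56 in progenitor and 3.27, 90.7, 175 and 115 in niche. Niche replicate 1 lay within the range of the other groups, and the remaining niche libraries far above it. Mature neuron genes (6 of 11 listed) summed to between 24.2 and 37.2 RPKM in stem libraries, 37.2 and 66.7 in progenitor libraries, and 142 and 885 in niche libraries, and their part was not tested. The stem minus niche difference was -3.24 ± 0.98 (adjusted p = 0.027) and progenitor minus niche -3.89 ± 0.98 (adjusted p = 0.0176). The first failed when stem replicate 2 (0.0682) or 4 (0.095) or niche replicate 2 (0.0656), 3 (0.0791) or 4 (0.0685) was left out, within 0.000119 to 0.095, or with library size alone (0.0698) or only the 2 groups (0.0768), and the second failed without niche replicate 3 (0.0518, range 7.4e-05 to 0.0518).

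Ccl27b was at 12.1, 16.8, 27 and 22 RPKM in stem, 91.3, 63.7, 60 and 67.7 in progenitor and 209, 93.8, 116 and 155 in niche. The 3 groups did not overlap, with stem lowest and niche highest. Stem differed by -1.84 ± 0.33 from progenitor (adjusted p = 0.00273) and by -2.81 ± 0.33 from niche (adjusted p = 2.3e-05), and progenitor minus niche was -0.96 ± 0.33 (adjusted p = 0.073), called without niche replicate 2 (0.0479, range 0.0406 to 0.367). The call against progenitor was lost with voom on the recovered reads (0.0526, range 0.00048 to 0.0526). Ccl27b lies on chromosome 4 in a region with near-identical copies, as do Il11ra1 and the pseudogenes Ccl19-ps1 and Ccl19-ps3, so how their reads were assigned is uncertain. Ccl19-ps3, with 1 to 12 reads in each stem library, averaged 1.53 ± 1.52 RPKM in stem, 8.77 ± 7.99 in progenitor and 13.6 ± 11.8 in niche (SD, n = 4 each). Its difference from niche, -2.23 ± 0.75 (adjusted p = 0.0455), was lost with the replicate block (0.0581). It was also lost without stem replicates 2, 3 or 4, without niche replicates 2, 3 or 4 and without progenitor replicates 2, 3 or 4 (0.0574 to 0.13, range over all alternatives 0.000739 to 0.13). Scaling by library size alone (0.0882), a pseudocount of 4 RPKM (0.0539), no filter (0.062), voom (0.0646) and a fit of only the 2 groups (0.0887) ended it as well, so that 7 of the 22 alternatives kept it. Its difference from progenitor, -1.89 ± 0.75 (adjusted p = 0.179), was called without niche replicate 1 (0.0402, range 0.0402 to 0.436) and with only the 2 groups fitted (0.0433). Il11ra1, an interleukin-11 receptor chain, was lower in stem than in both other groups without overlap. Its stem minus niche difference was -1.21 ± 0.42 (adjusted p = 0.0522). This was called in 6 of the 22 alternatives (range 0.0259 to 0.213), among them the replicate block (0.0418). Stem minus progenitor was -1.16 ± 0.42 (adjusted p = 0.132), called in 3 of the 22 (range 0.0125 to 0.322).

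Ccl25, which attracts thymocytes through Ccr9, averaged 3.19 ± 1.32 RPKM in stem, 4.03 ± 0.463 in progenitor and 5.30 ± 6.19 in niche and was not called. Ccl17 and Cxcl5 had too few reads to be tested. Ccl17 was at 0 in every stem library and Cxcl5 reached 1 read in 1 of them.

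Among chemokine receptors, Ccr2, the receptor of Ccl2, Ccl7 and Ccl12, was low outside niche. It was at 0.0798, 0.0733, 1.68 and 0.381 RPKM in stem, 1.43, 0.294, 0.381 and 0.0710 in progenitor and 23.3, 0.609, 0.604 and 13.8 in niche. Niche replicates 1 and 4 were high and the other 2 lay within the range of the rest. Stem minus niche was -1.94 ± 0.77 (adjusted p = 0.0831), stem minus progenitor -0.03 ± 0.77 (adjusted p = 0.993) and progenitor minus niche -1.91 ± 0.77 (adjusted p = 0.12). Both differences from niche were called without niche replicate 2 (0.0285 for stem, 0.0456 for progenitor) or niche replicate 3 (0.0283 and 0.0463), within 0.0283 to 0.197 for stem and 0.0456 to 0.251 for progenitor.

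Ackr3, the scavenger receptor of Cxcl12, averaged 20.1 ± 8.67 RPKM in stem, 13.1 ± 4.26 in progenitor and 47.7 ± 39.8 in niche (SD, n = 4 each). Its reads fit an exon length of 147 bases against 3348 annotated, so its level relative to other genes is uncertain, and each library had 17 to 88 reads. Progenitor lay below niche without overlap, by -1.54 ± 0.50 (adjusted p = 0.0581), which was called without niche replicate 3 (0.0487) or 4 (0.0409), within 0.0409 to 0.194. Ccr9, the receptor of Ccl25, had the same limit, with 216 bases against 10260. It was at 5.21, 3.59, 4.01 and 0 RPKM in stem, 16.6, 20.4, 16.6 and 19.9 in progenitor and 46.8, 1.17, 0.365 and 4.83 in niche. Every progenitor library was above every stem library, and niche spanned both. The stem minus progenitor difference was -2.48 ± 0.89 (adjusted p = 0.122). It was called without niche replicate 1 (0.00919) and with only these 2 groups in the fit (0.0071), within a range of 0.0071 to 0.351. Progenitor minus niche, 1.85 ± 0.89 (adjusted p = 0.191), was also called without niche replicate 1 (0.00419, range 0.00419 to 0.389) and with library size alone (0.0429).

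Secreted interleukins were mostly low, apart from Il18. Il18, an inflammasome product related to interleukin-1, was at 66.9, 71.6, 100 and 68.4 RPKM in stem, 225, 125, 128 and 139 in progenitor and 655, 132, 102 and 134 in niche. Stem lay below both other groups without overlap. The differences were -0.97 ± 0.46 from progenitor (adjusted p = 0.289) and -1.28 ± 0.46 from niche (adjusted p = 0.0596), not called. Without niche replicate 1 the difference from progenitor was called (0.0133), as it was with only the 2 groups fitted (0.0191), and the difference from niche was called with the replicate block (0.0392) and without niche replicate 3 (0.032). Over the alternatives these p-values ran from 0.0133 to 0.537 against progenitor and from 0.0123 to 0.145 against niche.

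Il33, an alarmin that oligodendrocytes and astrocytes are known to make, was at 1.48, 1.05, 1.55 and 1.22 RPKM in stem, 26.7, 12.3, 12.3 and 9.21 in progenitor and 0.0753, 13.2, 12.4 and 0.764 in niche. Stem lay below progenitor without overlap, and niche was split, with replicates 1 and 4 near stem and replicates 2 and 3 near progenitor. For stem minus progenitor the difference was -2.69 ± 0.74 (adjusted p = 0.0366). That call was lost without any single stem library (0.0757 to 0.105) and any single progenitor library (0.0556 to 0.119), within 0.000578 to 0.119 over the alternatives, and with a pseudocount of 0.1 RPKM (0.112), no filter (0.0521) or voom (0.057). Progenitor minus niche, 1.78 ± 0.74 (adjusted p = 0.133), was called without niche replicate 2 (0.0488, range 0.0488 to 0.396). Oligodendrocyte genes (6 of 11 listed) summed to between 147 and 619 RPKM in stem libraries and 2208 and 6160 in progenitor libraries. In niche replicates 1 to 4 they summed to 5657, 4841, 2602 and 3969 RPKM. Astrocyte genes (9 of 15 listed) summed to between 600 and 1231 RPKM in stem libraries and 3541 and 5122 in progenitor libraries. In niche replicates 1 to 4 they summed to 5312, 6813, 5191 and 5101 RPKM. The part of either cell type in the Il33 result was not tested. Il10, Il12a, Il1f6, Il1f8, Il1f9 and Il25 had too few reads to be tested. Of these, Il10, an anti-inflammatory interleukin, was at 4.51, 5.86, 0.0508 and 0.205 RPKM in stem and reached at most 1 read in any progenitor or niche library.

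Interleukin receptors formed the largest role, with 17 members, of which 15 were tested. Il4ra, the chain that binds interleukin-4 and interleukin-13 (ENSMUSG00000030748, chromosome 7, 125552120 to 125579474), was at 31.0, 67.2, 16.5 and 20.3 RPKM in stem, 0.201, 1.80, 0.873 and 2.27 in progenitor and 43.4, 8.46, 4.71 and 5.32 in niche. Progenitor lay below both other groups, and stem overlapped niche through niche replicate 1. Stem exceeded progenitor by 3.82 ± 0.65 (adjusted p = 0.00195) under all 22 alternatives. Progenitor minus niche was -2.38 ± 0.65 (adjusted p = 0.0272), lost without progenitor replicate 1 (0.0663), 2 (0.0535) or 3 (0.076), within 0.0213 to 0.076, and with a pseudocount of 4 RPKM (0.072), voom (0.0532) or only the 2 groups (0.0739). The stem minus niche difference was 1.44 ± 0.65 (adjusted p = 0.128) and was called without niche replicate 1 (0.00526, range 0.00312 to 0.328) and with library size alone (0.0144).

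Its partner in the type II receptor, Il13ra1, was at 12.4, 27.3, 6.85 and 5.04 RPKM in stem, 0.515, 3.51, 2.01 and 2.12 in progenitor and 7.32, 5.61, 13.3 and 11.1 in niche. Progenitor was again lowest, by 2.03 ± 0.54 for stem minus progenitor (adjusted p = 0.0324) and -1.80 ± 0.54 for progenitor minus niche (adjusted p = 0.0426). That against progenitor was lost without stem replicate 1 (0.0967) or 2 (0.128) and progenitor replicate 1 (0.0996), 3 (0.0776) or 4 (0.0696), within 0.0145 to 0.128. That against niche was lost with the replicate block (0.0574), and without stem replicate 1 or 3, any single progenitor library, or niche replicate 3 or 4 (0.0571 to 0.0979), within 0.025 to 0.124. Scaling by library size alone (0.124), a pseudocount of 4 RPKM (0.0671), no filter (0.0538), voom (0.0575) and a fit of only the 2 groups (0.0844) ended it too, and 8 of the 22 alternatives kept it.

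Il10rb, a chain shared by receptors of the interleukin-10 family, was at 51.1, 144, 42.5 and 36.1 RPKM in stem, 5.05, 7.75, 6.12 and 8.28 in progenitor and 103, 6.13, 15 and 28.6 in niche. Stem was above progenitor in every library, by 2.94 ± 0.66 (adjusted p = 0.0114), which was lost without stem replicate 2 (0.056, range 0.000793 to 0.056). Against niche, stem was called higher without niche replicate 1 (0.00849, range 0.00849 to 0.439) or with library size alone (0.0208) and progenitor lower without niche replicate 2 (0.0289, range 0.0289 to 0.309). Il21r, which neighbours Il4ra on chromosome 7, was at 13.9, 31.6, 2.25 and 4.49 RPKM in stem, 0.0280, 0.179, 0.516 and 0.632 in progenitor and 1.32, 13.3, 1.15 and 8.11 in niche. Progenitor lay below both other groups without overlap. Stem minus progenitor was 2.87 ± 0.74 (adjusted p = 0.0259), lost without stem replicate 1 (0.086) or 2 (0.102) and progenitor replicate 1 (0.0821), 2 (0.0726) or 3 (0.0589), or with a pseudocount of 4 RPKM (0.0621), within 0.00965 to 0.102. Progenitor minus niche was called without niche replicate 1 (0.0435, range 0.0435 to 0.221) and with a pseudocount of 0.1 RPKM (0.0461). Both genes were highest in stem replicate 2.

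Il1r1, the signalling receptor of interleukin-1, went the other way (ENSMUSG00000026072, chromosome 1, 40225080 to 40317257). It was at 1.35, 1.11, 0.236 and 0.673 RPKM in stem, 1.58, 1.08, 0.569 and 1.5 in progenitor and 26.6, 20, 18.4 and 20.8 in niche. The 4 niche libraries, niche replicate 1 included, were close to each other and far above the rest, while stem and progenitor overlapped. For stem minus niche the difference was -3.64 ± 0.41 (adjusted p = 1.5e-05) and progenitor minus niche -3.38 ± 0.41 (adjusted p = 6.8e-05), and both calls held under all 22 alternatives. Neighbouring Il1r2, the decoy receptor, was at 2.83 ± 2.07 RPKM in stem, 0.551 ± 0.0614 in progenitor and 3.54 ± 4.41 in niche and was not called. The accessory chain Il1rap averaged 1.61 ± 0.717, 3.27 ± 1.83 and 16.7 ± 13.7 RPKM in stem, progenitor and niche (SD, n = 4 each), with a stem minus niche difference of -2.14 ± 0.76 (adjusted p = 0.0567). This was called in 5 of the 22 alternatives (range 6.9e-05 to 0.151), among them the replicate block (0.0309) and the fit without niche replicate 1 (0.00016). Without niche replicate 1, Il1rap was also called lower in progenitor than in niche (0.00178, range 0.00178 to 0.428). The interleukin-6 family chain Il6st averaged 4.16 ± 1.63, 6.43 ± 1.31 and 10.5 ± 6.55 RPKM in the same order and was not called, except lower in stem than in niche without niche replicate 1 (0.00494, range 0.00347 to 0.634).

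**Figure D5:**
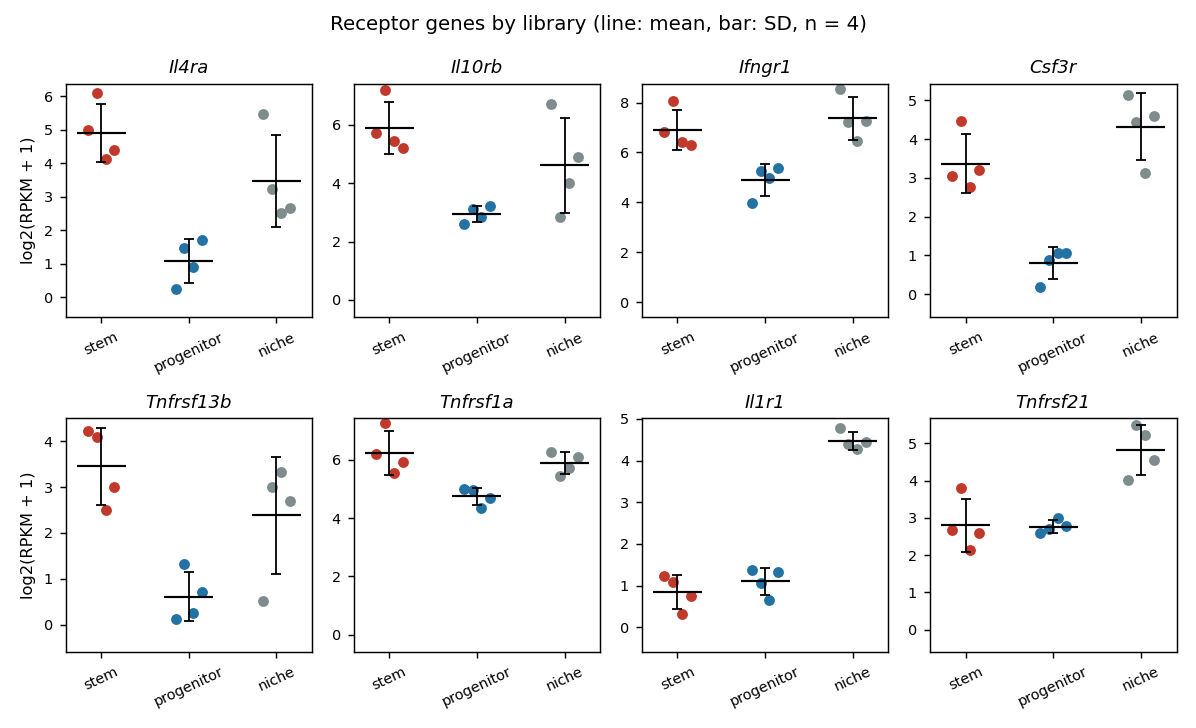
Levels of 8 receptor genes by library as log2(RPKM + 1), TMM-scaled, in stem, progenitor and niche, with the mean as a line and the SD as a bar (n = 4). Il4ra, Il10rb, Ifngr1, Csf3r, Tnfrsf13b and Tnfrsf1a have their lowest mean in progenitor, while Il1r1 and Tnfrsf21 are highest in niche.

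Osm encodes oncostatin M, an interleukin-6 family cytokine of myeloid cells. It was at 6.16, 18.4, 1.79 and 2.84 RPKM in stem, 0, 0.228, 0.395 and 0.0473 in progenitor and 0.168, 0.0278, 0.0695 and 0.0656 in niche. The stem libraries had 61 to 485 reads, the progenitor libraries at most 22 and each niche library 1 or 2. Stem was higher than progenitor by 2.42 ± 0.49 (adjusted p = 0.00635) and than niche by 2.52 ± 0.49 (adjusted p = 0.0018), calls that held under all 22 alternatives. The sizes depend on the pseudocount: with 0.1 RPKM they were 4.51 and 4.84, with 4 RPKM 1.23 and 1.25. Related Lif reached 49 reads in stem replicate 2 and 8 to 52 in progenitor, with a single read in niche, and was not tested. Its receptor chain Lifr averaged 12.6 ± 6.24 RPKM in stem, 4.31 ± 2.96 in progenitor and 14.8 ± 6.65 in niche (SD, n = 4 each), with progenitor minus niche at -1.69 ± 0.59 (adjusted p = 0.0766), called without niche replicate 2 (0.0437, range 0.0437 to 0.191).

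Both colony stimulating factor receptors were higher in stem than in progenitor. Csf3r, the receptor of granulocyte colony stimulating factor, was at 7.22, 21.1, 5.76 and 8.25 RPKM in stem, 0.142, 0.852, 1.08 and 1.10 in progenitor and 34.2, 20.6, 7.68 and 23.3 in niche. Progenitor was below both other groups, by 2.57 ± 0.53 for stem minus progenitor (adjusted p = 0.00664) and -3.52 ± 0.53 for progenitor minus niche (adjusted p = 0.000402), under all 22 alternatives. Csf2rb, the chain shared by the receptors of interleukin-3, interleukin-5 and granulocyte-macrophage colony stimulating factor, was at 6.77, 18.1, 8.44 and 3.81 RPKM in stem, 0.0470, 0.701, 0.543 and 0.746 in progenitor and 0.123, 2.81, 6.53 and 0.640 in niche. Stem cleared progenitor and overlapped niche at niche replicate 3. The stem minus progenitor difference was 2.61 ± 0.60 (adjusted p = 0.0126), lost without stem replicate 2 (0.0546, range 0.00215 to 0.0546), and 4.00 with a pseudocount of 0.1 RPKM. Stem minus niche was 1.75 ± 0.60 (adjusted p = 0.0472). It was lost without stem replicates 1, 2 or 3, any single progenitor library, or niche replicates 1 or 4 (0.0516 to 0.138), within 0.011 to 0.138. A pseudocount of 0.1 RPKM (0.0878), no filter (0.0628), voom (0.0852) and a fit of only the 2 groups (0.117) ended it too.

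Of 4 interferon receptor genes, Ifngr1, the ligand-binding chain of the interferon-gamma receptor, was called. It was at 111, 269, 83.7 and 78.8 RPKM in stem, 14.7, 37.6, 30.2 and 40.6 in progenitor and 368, 150, 86.1 and 152 in niche. Progenitor lay below both groups, which overlapped. For stem minus progenitor the difference was 2.00 ± 0.48 (adjusted p = 0.0161), lost without stem replicate 2 (0.0685) or progenitor replicate 1 (0.0652), within 0.00389 to 0.0685, and progenitor minus niche -2.47 ± 0.48 (adjusted p = 0.00291), held under all 22 alternatives. Ifngr2, its partner chain, averaged 2.91 ± 1.69, 3.82 ± 2.42 and 8.57 ± 6.19 RPKM in stem, progenitor and niche (SD, n = 4 each). The type I interferon chain Ifnar1 averaged 13.4 ± 2.34, 9.16 ± 1.38 and 10.2 ± 7.05 RPKM, and Ifnar2 5.88 ± 2.71, 3.56 ± 0.936 and 7.88 ± 4.15 RPKM. None of these 3 passed the test. Without niche replicate 1, Ifngr2 was called lower in stem than in niche (0.0162, range 0.00805 to 0.542) and Ifnar2 lower in progenitor than in niche (0.0363, range 0.0363 to 0.646).

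TNF receptors were called 4 times of 7 tested for stem against progenitor, and TNF ligands were not called. Tnfrsf13b and Tnfrsf17, known as TACI and BCMA from B cells and plasma cells, bind Tnfsf13 and Tnfsf13b. Tnfrsf13b was at 17.6, 16.0, 4.69 and 6.96 RPKM in stem, 0.0977, 1.5, 0.200 and 0.639 in progenitor and 0.426, 6.99, 8.98 and 5.52 in niche. Stem cleared progenitor by 2.84 ± 0.63 (adjusted p = 0.0102) under all 22 alternatives and overlapped niche. Progenitor minus niche was called without niche replicate 1 (0.00291, range 0.00291 to 0.188). Tnfrsf17 was at 16.8, 56.7, 31.9 and 11.5 RPKM in stem, 0.131, 0.741, 1.24 and 1.60 in progenitor and 0, 32.8, 1.27 and 1.60 in niche. Only niche replicate 2 reached the stem range. Stem minus progenitor was 3.79 ± 0.85 (adjusted p = 0.0116), lost without stem replicate 2 (0.0551) or progenitor replicate 1 (0.0506), within 0.000576 to 0.0551. The stem minus niche difference was 2.76 ± 0.85 (adjusted p = 0.0306), lost without stem replicate 1 (0.0506), 2 (0.0973) or 3 (0.0769) and niche replicate 1 (0.0606), 3 (0.0716) or 4 (0.0644), within 0.000452 to 0.0973. A pseudocount of 0.1 RPKM (0.051), voom (0.0517) and a fit of only the 2 groups (0.0813) ended it too.

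Tnfrsf11a encodes RANK, the receptor that drives osteoclast formation. It was at 8.29, 23.8, 3.49 and 7.43 RPKM in stem, 0.108, 0.522, 0.181 and 1.35 in progenitor and 0.235, 0.435, 0.0388 and 15.7 in niche. Stem was above progenitor in every library, and niche replicate 4 alone among niche libraries lay within the stem range. The stem minus progenitor difference was 2.72 ± 0.78 (adjusted p = 0.0454), lost without stem replicates 1, 2 or 4, any single progenitor library or niche replicate 2 (0.0517 to 0.164), within 0.00385 to 0.164. Either other pseudocount (0.0643 and 0.0691) and no filter (0.0658) ended it too. For stem minus niche the difference was 2.04 ± 0.78 (adjusted p = 0.0736), called with the replicate block (0.0469) and without niche replicate 4 (0.0016), within 0.0016 to 0.198, and also with library size alone (0.0328) or voom (0.0307).

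Tnfrsf1a, the main TNF receptor of most cells, was the most abundant of the 8 TNF receptor members. It was at 72.3, 154, 45.4 and 60.1 RPKM in stem, 30.8, 29.9, 19.5 and 24.6 in progenitor and 76.5, 42.2, 52.1 and 67.2 in niche. Progenitor lay below both groups without overlap. For stem minus progenitor the difference was 1.49 ± 0.37 (adjusted p = 0.0211), lost without stem replicate 1 (0.0565) or 2 (0.0791) and progenitor replicate 3 (0.0768) or 4 (0.0547), within 0.0076 to 0.0791. Progenitor minus niche was -1.14 ± 0.37 (adjusted p = 0.0581), called without stem replicate 2 (0.0334, range 0.0334 to 0.27).

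Tnfrsf21, a death-domain receptor known as DR6 from neurons, was high in niche. It was at 5.44, 12.8, 3.39 and 5.01 RPKM in stem, 5.01, 5.55, 6.92 and 5.90 in progenitor and 15.1, 44.1, 36.0 and 22.5 in niche. Niche lay above both groups, and stem and progenitor overlapped. Stem minus niche was -2.02 ± 0.47 (adjusted p = 0.00577) and progenitor minus niche -2.05 ± 0.47 (adjusted p = 0.00967). Both calls were lost with scaling by library size alone (0.0605 and 0.0633, ranges 0.000602 to 0.0605 and 0.000954 to 0.0633).

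Among the TNF ligand members, Tnfsf9, the ligand of 4-1BB, was the most abundant. It averaged 12.5 ± 3.44 RPKM in stem, 12.8 ± 5.0 in progenitor and 29.4 ± 38.9 in niche (SD, n = 4 each). The niche libraries ran from 0.128 to 85.4 RPKM, wider than the whole range of the other groups. Tnfsf10, which encodes the death ligand TRAIL, averaged 1.77 ± 1.07 RPKM in stem, 0.793 ± 1.35 in progenitor and 7.08 ± 10.7 in niche. Its receptor Tnfrsf10b averaged 0.432 ± 0.456, 0.927 ± 0.449 and 1.38 ± 2.05 RPKM in the same order. Tnfsf18, the ligand of GITR, was at 3.74, 5.98, 1.42 and 0 RPKM in stem, had at most 6 reads in progenitor and was at 0 in every niche library, and was not tested.

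Among Jak kinases and Socs inhibitors, none of Jak2, Socs4, Socs5 and Socs7 passed the test in any comparison of the main fit, and their log2 fold changes for stem minus progenitor ran from -0.49 to 0.15. Without niche replicate 3, Socs5 was called higher in progenitor than in niche (0.0425, range 0.0425 to 0.601). Socs7 was the most abundant, at 5.47 ± 1.16 RPKM in stem, 5.22 ± 2.37 in progenitor and 4.17 ± 2.91 in niche (SD, n = 4 each). Jak3 had 6 to 35 reads in stem and 0 to 12 in progenitor and in niche 1 to 12, and was not tested. Il4i1, whose symbol fits the rule but which encodes an amino acid oxidase induced by interleukin-4, averaged 2.68 ± 1.99 RPKM in stem, 0.508 ± 0.223 in progenitor and 1.11 ± 0.888 in niche. Stem lay above progenitor without overlap, by 1.16 ± 0.44 (adjusted p = 0.158).

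Signalling partners of these receptors were looked up as 3 lists. Of 16 genes of cytokine receptor kinases, STATs and their regulators, 9 were listed and 8 tested. Stat6, the STAT of interleukin-4, was higher in stem, at 28.3 ± 16.3 RPKM against 2.33 ± 0.621 in progenitor (SD, n = 4 each), by 3.01 ± 0.73 (adjusted p = 0.0191), and no other gene of the list was called for this pair. Leaving out progenitor replicate 1, or either of stem replicates 1 and 2, ended this call (range over the alternatives 0.000525 to 0.0831). Stat2 and Irf9, partners in type I interferon signalling, were higher in stem than in niche, by 2.50 ± 0.54 (adjusted p = 0.00349) and 1.96 ± 0.53 (adjusted p = 0.015). Stat2 was also higher in progenitor than in niche, by a log2 difference of 1.91 (adjusted p = 0.0302), which was lost without progenitor replicates 2, 3 or 4 or niche replicate 4 and with only the 2 groups fitted (range 0.00463 to 0.107). The median of the 8 was 0.63 for stem minus progenitor, 0.75 for stem minus niche and 0.46 for progenitor minus niche.

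Of 40 genes of TNF and interleukin-1 receptor adaptors and NF-kB, 15 were listed and all 15 tested. Irak4, a kinase of interleukin-1 and Toll-like receptors, was higher in stem than in progenitor, at 13.5 ± 5.77 RPKM against 2.47 ± 1.39 (SD, n = 4 each), by 2.09 ± 0.59 (adjusted p = 0.044). This was lost with the replicate block and without any single stem or progenitor library or niche replicate 3 (range 0.00691 to 0.153). Scaling by library size alone (0.0567), either other pseudocount (0.0571 and 0.0528) and no filter (0.0587) ended it as well. Against niche, the kinase gene Ripk1 (1.52 ± 0.39, adjusted p = 0.0111), the NF-kB inhibitor gene Nfkbie (2.21 ± 0.56, adjusted p = 0.011) and the adaptor gene Tab1 (1.83 ± 0.56, adjusted p = 0.0288) were higher in stem. Tab1 was lost without any single stem library or niche replicate 4 and with only the 2 groups fitted (range 0.0124 to 0.078). These 3, with Stat2 and Irf9, were named after their values were seen. Rela, an NF-kB subunit, was at 51.9 ± 10.2 RPKM in stem, 35.6 ± 6.14 in progenitor and 26.9 ± 21.7 in niche and was not called. With library size alone (0.0407) or without niche replicate 4 (0.0287), Rela was called higher in stem than in niche. Ripk1 was called higher in stem than in progenitor under some alternatives, among them voom (0.0483) and only the 2 groups fitted (0.0158). Calls that other genes of the 3 lists gained under alternatives are not given. The list's medians were 0.48, 0.75 and 0.08 for stem minus progenitor, stem minus niche and progenitor minus niche.

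Of 43 relatives of the members with other symbols, 17 were listed and 12 tested. For stem against progenitor 4 were higher: Csf1r, the receptor of colony stimulating factor 1, by 4.77 ± 0.45 (adjusted p = 2.6e-05), the platelet chemokine gene Pf4 by 4.64 ± 0.65 (adjusted p = 0.000428), Ebi3, a chain of interleukin-27, by 3.82 ± 0.78 (adjusted p = 0.00654), and Tslp, an interleukin-7-like cytokine, by 3.65 ± 0.71 (adjusted p = 0.00475). Csf1r and Pf4 also stand in the macrophage marker lists. Tslp was at 64.5, 183, 69.9 and 46.8 RPKM in stem, 11.5, 5.27, 5.45 and 2.25 in progenitor and 16.7, 1.17, 0.974 and 0.613 in niche. Stem lay above all other libraries, also by 4.59 ± 0.71 over niche (adjusted p = 0.000262). Ebi3 and Pf4 were higher in stem than in niche as well, by 2.59 ± 0.78 (adjusted p = 0.0275) and 3.77 ± 0.65 (adjusted p = 0.000644), where Ebi3 was lost without stem replicate 1 or 2 and with only the 2 groups fitted (range 0.0103 to 0.0982). Csf1r averaged 550 ± 329 RPKM in stem, 19.4 ± 10 in progenitor and 272 ± 60.3 in niche (SD, n = 4 each), with a progenitor minus niche difference of -3.90 on the log2 scale (adjusted p = 5.1e-05). Tnf, Il1b, Csf1, Il34 and Cx3cr1 were not analysed here.

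Summed over all 76 members, the level was 2622, 7708, 1712 and 1448 RPKM in stem, 656, 704, 533 and 651 in progenitor and 2736, 1371, 1107 and 1489 in niche. Progenitor libraries were the lowest and the most alike. Between 61 and 72 members were above 0 in each library, and 67 to 72 in each progenitor library. Progenitor libraries were also deeper than stem libraries, at 14873117 to 22854036 reads against 8693282 to 12948644. Genes of any kind above 0 numbered 8455 to 9700 in progenitor libraries, 8717 to 8849 in stem libraries and 8037 to 8882 in niche libraries.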

How the data were processed

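RNA of 12 libraries, 4 per sorted population, was sequenced, and groups were taken from the labels' titles. The authors deposited log2 values for 10749 genes, read here as log2(RPKM + 1) from the values. With the log undone, 100% of the values above 0 were whole reads within 1e-05 reads. For 9285 of the 10510 genes above 0 the exon length was itself chosen to make the reads whole. The 100% is therefore no independent check. The exon length came from the GENCODE annotation for 9 members and was found from the values for 67, and for 17 it was under 0.5 times the annotated length, so levels of different genes compare only roughly. Per the submitters' processing notes the build was GRCm38 (mm10). As aligner, counter and strand setting were not given in the sources used here, Tnfsf13os cannot be told apart from genes on the other strand.

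Genes with 0.767 CPM or more in 4 libraries and 15 reads in total were kept (8360). A CPM of 0.767 is 10 reads in the median library. TMM factors were computed from the recovered reads, and limma 3.58.1 (R 4.3.3) was fitted to log2(RPKM / factor + 1) over all 12 libraries with 1 mean per group, an intensity trend and robust empirical Bayes. Adjustment was by Benjamini-Hochberg over all tested genes, with a threshold of 0.05. Every adjusted p comes from this fit or its alternatives, and fold changes on this scale understate changes of low genes. A floor of 3 reads equals 0.131 to 0.395 CPM and covers counting error only. The script was tested on simulated data.

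The series' design text says that the 3 populations came from each of 4 replicates, so same-numbered libraries may be paired. The main fit had no replicate block, so its adjusted p-values do not use this pairing. Correlations of the deviations of same-numbered libraries from the group means ran from -0.128 to 0.205. The fit with a replicate block is named only where it changes a call. The 22 alternatives changed scaling, pseudocount, filter, test or libraries.

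By rule, members are named when called (the 15 largest changes per direction and comparison), when highest in their role, or as ligand and receptor pairs. Others were added outside this rule, among them Il10, Tnfsf18, Il1r2, Il1rap, Il11ra1, Ifnar1, Ifnar2, Ifngr2, Jak3, Ccl17 and Cxcl5. Further members like these are not named. The members, lists and tests were chosen with earlier results of these data known. Results for 1 member are not reported here, although it stays in the counts.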

Additional observations from a re-analysis of the deposited data

Results flagged for a closer look

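In 10 of 117 groups of 4 libraries checked, 1 library lay far from the other 3, where chance gives about 1 in 20. No test of a cause was made. In stem, Ccl8 was at 648 RPKM in replicate 2 against 34.3 to 48.3 in the others, and Lif at 1.28 RPKM in replicate 2 against 0 to 0.061. Il18 was at 100 RPKM in stem replicate 3 against 66.9 to 71.6, and Ccr9 at 0 in stem replicate 4 against 3.59 to 5.21 RPKM.

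Progenitor replicate 1 differed from the other 3 progenitor libraries in Ccl19-ps3 (20.7 against 3.90 to 5.27 RPKM), Tnfsf10 (2.81 against 0.0669 to 0.162 RPKM) and Socs7 (1.75 against 5.69 to 6.91 RPKM). In niche, Il18 was at 655 RPKM in replicate 1 against 102 to 134, and Tnfrsf11a at 15.7 RPKM in replicate 4 against 0.0388 to 0.435. Lif was at 0.0238 RPKM, a single read, in niche replicate 3 and at 0 in the others.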

How the results depend on the processing

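The 22 alternatives reversed no called fold change of a member. With the replicate block, calls were lost for Ccl19-ps3 in stem against niche and Il13ra1 in progenitor against niche. In stem against niche they were gained for Il18, Il1rap (0.0309), Il11ra1 (0.0418) and Tnfrsf11a. The block changed no other call of a tested member. With only the 2 groups compared in the fit, all-gene counts were 674 higher and 738 lower for stem against progenitor and 260 and 283 for progenitor against niche, and 6 members were lower in stem than in progenitor. Without progenitor replicate 1 and niche replicate 1 together, all-gene counts were 526 and 608 for stem against progenitor, 1496 and 1534 for stem against niche and 1001 and 992 for progenitor against niche. The members were then 5 lower for the first pair, 13 lower for the second and 4 higher for the third. Scaling by library size alone set the median of all genes at 0.58 in place of 0.11 for stem against niche, and at 0.62 in place of 0.17 for progenitor against niche. It gave 2017 higher and 586 lower genes (14 and 4 members) for stem against niche, and 1525 and 314 genes with 2 members higher for progenitor against niche. Members lower in stem than in progenitor numbered 1 with a pseudocount of 0.1 RPKM, 1 with no filter and 0 with voom.

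With 1 library left out, all-gene counts ran from 201 to 536 higher and 169 to 580 lower for stem against progenitor, 641 to 1178 and 634 to 1331 for stem against niche, and 253 to 775 and 286 to 893 for progenitor against niche. Member counts ran from 9 to 19 higher and 1 to 6 lower, 7 to 9 and 5 to 10, and 0 to 2 and 7 to 15 in the same order. Of the single-gene results 1249 stayed on their side, 96 lost a call and 23 gained one. The cause was not tested. Depth limits Cxcl1, Cxcl2 and Osm in niche, where counts were near 0 and the size of the fold change depended on the pseudocount.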
